A study of Homo sapiens with 2 samples.

Results

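ABC transporters are membrane and cytosolic proteins that share an ATP-binding cassette, and they were compared here as a gene family between 2 libraries of the established liver carcinoma line Huh7. The members were the rows of the deposited count table whose symbol is ABC, a subfamily letter from A to G and a number, with 3 matching rows left out. This gave 42 genes of 19927 in the table. They comprise 12 ABCA, 7 ABCB, 11 ABCC, 3 ABCD, 1 ABCE, 3 ABCF and 5 ABCG genes. The HD library came from cells kept for 48 h in medium with homochlorcyclizine dihydrochloride, a piperazine antihistamine acting on H1 receptors. The sources used here give no dose. The DMSO library came from cells kept for 48 h with DMSO, the solvent control, and both cultures were grown in the same serum-containing medium. Each group is 1 library, so no difference below has a replicate check and none was tested.

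Most ABC proteins use the energy of ATP to move a substrate across a membrane. In hepatocytes they load cholesterol and phospholipid onto high-density lipoprotein or into bile, and export drugs and conjugates through the canalicular membrane into bile or the basolateral membrane into blood. Other members carry fatty acyl-CoA into peroxisomes, serve heme and iron metabolism in mitochondria, or act in lysosomes. The ABCE and ABCF proteins have no membrane-spanning part and act on ribosomes.

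The HD library held 40791119 counts and the DMSO library 38133894, and these ABC genes took 0.178% of the counts in the HD library and 0.178% in the DMSO library. All 10 hepatocyte and hepatoma markers examined, among them ALB, AFP and HNF4A, were above the filter in both libraries. Their summed FPKM was 8497 in the HD library and 9841 in the DMSO library. The largest part was AFP, at 3619 FPKM in the HD library and 5013 FPKM in the DMSO library. The 10 markers did not move together, with ratios from 0.725 for AFP to 1.44 for APOB. SERPINA1 and TF each had a ratio of 1.34, ALB one of 0.965 and HNF4A one of 0.949. Markers of other cells were mixed. The 5 leukocyte markers, nearly all of whose level was LYZ, summed to 365 FPKM in the HD library and 311 FPKM in the DMSO library, and the defining PTPRC had 6 counts in the HD library and 2 in the DMSO library. The 5 cholangiocyte markers summed to 473 FPKM in the HD library and 405 FPKM in the DMSO library, with KRT19 and EPCAM abundant and KRT7 at 0 counts. The 5 fibroblast markers summed to 12.1 FPKM in the HD library and 9.71 FPKM in the DMSO library, most of it LUM, and COL1A2 was at 0 counts. The 5 endothelial markers summed to 0.883 FPKM in the HD library and 1.79 FPKM in the DMSO library, with KDR and TEK at 0 counts. Nearly all of that was PECAM1, with 229 counts in the HD library and 446 in the DMSO library, a ratio of 0.482 (0.409 to 0.566) and the 1 marker past 2-fold. The part of such markers in the differences below was not tested, and fewer cells of a type and less RNA per cell cannot be told apart in bulk RNA.

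Of the 42 genes, 27 had a mean of at least 1 CPM (library-size-scaled counts), and these are the genes compared. In the HD library 3 of them (11.1%) were higher by at least 2-fold with a 95% counting interval excluding 1, against 5.88% of all 12353 genes above the same filter. The 3 were ABCA3, ABCB4 and ABCC3. None was at least 2-fold lower, against 5.17% of all genes. At 1.5-fold, 4 ABC genes (14.8%) were higher and 3 (11.1%) lower, where the background was 14.1% in each direction. The numbers past either threshold are small, and at 1.5-fold the shares were near or below the background. The ratio was above 1 for 14 of the 27 genes and below 1 for 13, against 48.9% and 51.1% of all genes. The median log2 ratio of HD over DMSO was 0.04 for ABC genes and -0.01 for all genes, while the median absolute log2 ratio was 0.48 for ABC genes and 0.34 for all genes. Intervals quoted here are 95% counting intervals. They do not cover variation between cultures.

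**Figure D1:**
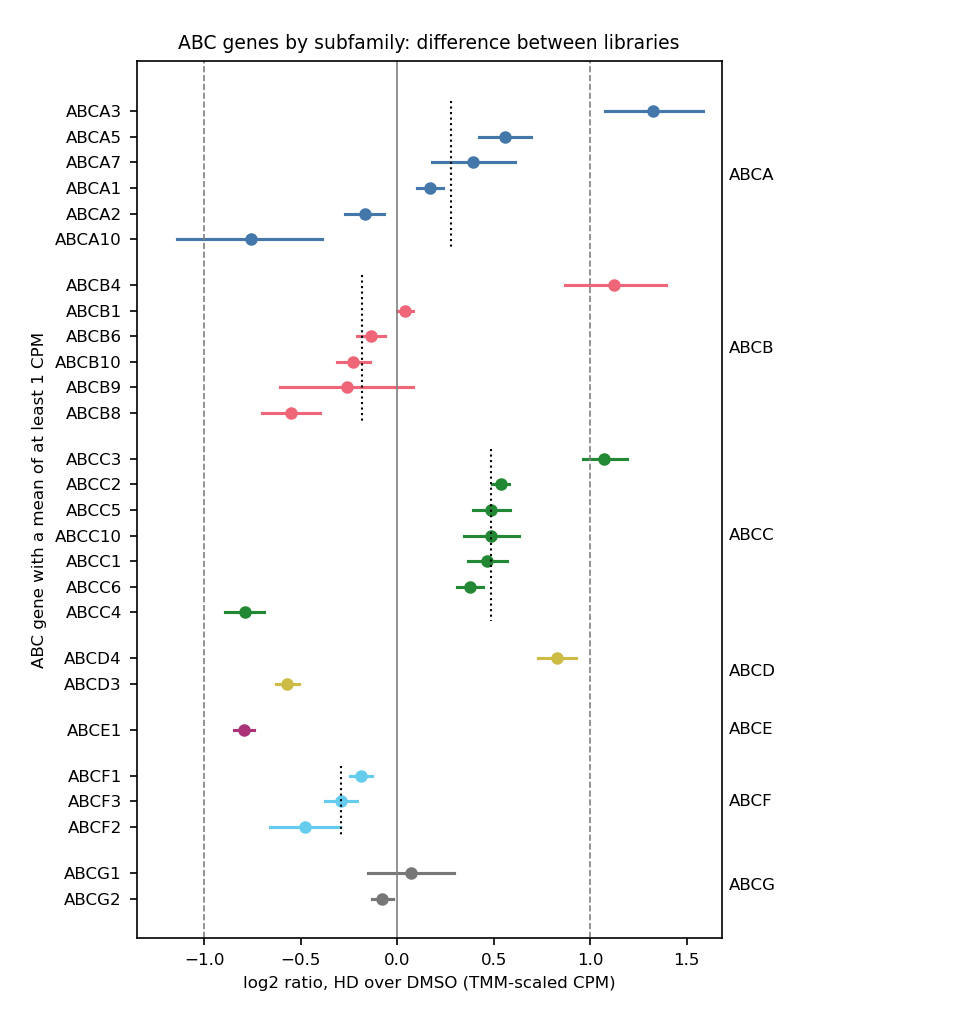
Log2 ratio of HD over DMSO (x axis) for the 27 ABC genes above 1 CPM (y axis), grouped and coloured by subfamily, with lines for 95% counting intervals, a dotted line for the median of subfamilies with at least 3 genes and dashed lines at 2-fold. ABCA3, ABCB4 and ABCC3 lie right of the 2-fold line, 6 of 7 ABCC genes lie right of 0, and all ABCE and ABCF genes lie left of it.

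The subfamilies differed in where their members lay. Of 7 ABCC genes above the filter, 6 had a ratio above 1, and the median log2 ratio was 0.49. The summed CPM of ABCC genes was 588 in the HD library and 441 in the DMSO library, a ratio of 1.34 (1.31 to 1.36). Of 6 ABCA genes, 4 were above 1, with a median of 0.28. Of 6 ABCB genes, 4 were below 1, with a median of -0.18, although ABCB4 was past 2-fold in the other direction. All 3 ABCF genes and the single ABCE gene were below 1, and the ABCF median was -0.29. In the ABCD and ABCG subfamilies 2 genes each passed the filter, 1 on each side of 1. With 1 to 7 genes per subfamily these are descriptions of single genes more than of groups.

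Levels are compared between genes as deposited FPKM, which divides counts by gene length and library total. In the HD library ABCC2 had the highest level of the family at 61.9 FPKM, followed by ABCB1 at 45.3, ABCF1 at 37.0, ABCE1 at 31.1 and ABCG2 at 29.5 FPKM. In the DMSO library ABCE1 came first at 54.1 FPKM, followed by ABCB1 at 44.2, ABCC2 at 42.9, ABCF1 at 42.3 and ABCG2 at 31.2 FPKM. The same 5 genes therefore led both libraries in a different order. In the DMSO library the counting interval of ABCC2 (41.9 to 43.9 FPKM) overlapped those of ABCB1 (43.3 to 45.1) and ABCF1 (41.2 to 43.4), so their order there is not resolved. In the HD library ABCE1 (30.2 to 31.9) and ABCG2 (28.7 to 30.3) overlapped.

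**Figure D2:**
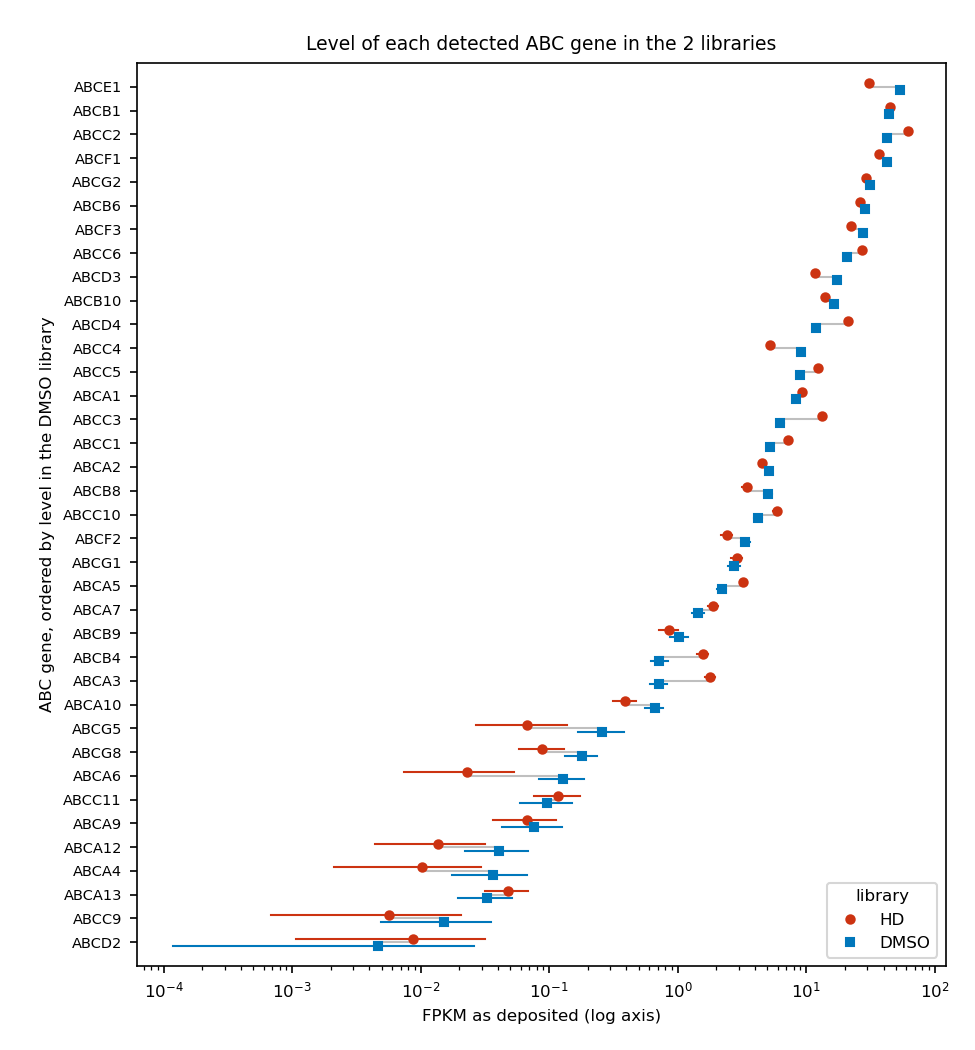
Deposited FPKM (log x axis) of the 37 ABC genes with counts in both libraries (y axis, ordered by the DMSO library), with circles for HD, squares for DMSO and lines for 95% counting intervals. Levels ran from under 0.01 FPKM to 61.9 FPKM, and the intervals widen below about 0.1 FPKM.

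Sterol and phospholipid exporters above the filter all had ratios above 1, but 1 of the 4 was past 2-fold. ABCB4, which moves phosphatidylcholine into bile (chromosome 7, 87365896 to 87476027), had 407 counts in the HD library and 175 in the DMSO library. Its level was 1.57 FPKM in the HD library against 0.722 FPKM in the DMSO library, a 2.18-fold difference (1.82 to 2.62), and 4.44% of all genes compared had a ratio as high. The neighbouring ABCB1 on the same chromosome (87503017 to 87713295), its close paralog, did not share this difference. The level of ABCB4 was 0.0346 of that of ABCB1 in the HD library and 0.0163 in the DMSO library, so ABCB4 stayed a minor transcript beside ABCB1.

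ABCA1 exports cholesterol and phospholipid to lipid-poor apolipoprotein A-I and is the main sterol exporter by level here. It was at 9.32 FPKM (3957 counts) in the HD library and 8.32 FPKM (3301 counts) in the DMSO library, a ratio of 1.13 (1.07 to 1.18). ABCG1, which passes cholesterol to mature high-density lipoprotein, was at 2.88 FPKM (355 counts) in the HD library and 2.75 FPKM (317 counts) in the DMSO library. Its ratio of 1.05 had an interval that included 1 (0.901 to 1.23). ABCA7, a phospholipid exporter related to ABCA1, was at 1.88 FPKM (431 counts) in the HD library and 1.44 FPKM (308 counts) in the DMSO library, a ratio of 1.31 (1.13 to 1.53). ABCA1 and ABCG1, classical targets of the liver X receptors, thus had ratios of 1.13 and 1.05, with intervals reaching 1.18 and 1.23.

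ABCG5 and ABCG8 form a heterodimer that secretes sterols into bile, and both were under the filter. ABCG5 had 7 counts in the HD library and 25 in the DMSO library, a ratio of 0.263 (0.0960 to 0.625). ABCG8 had 26 counts in the HD library and 49 in the DMSO library, a ratio of 0.498 (0.297 to 0.817). Both intervals lay below 1, opposite in direction to the 4 exporters above the filter. Their exons overlap on opposite strands over 3.68% of the exonic bases of ABCG5, so these few reads are uncertain. The genes are transcribed in opposite directions, and the transcript starts used in the RefSeq promoter table have 131 bases between them (GRCh38.p14, chr2:43838840-43838970, strand of ABCG8). Other transcript models of ABCG5 start further out, so the annotated genes overlap and the stretch lies within that of ABCG5. It is shown because both genes lie on the same side of 1. A match to the GATA factor motif AGATAA, read on the other strand, is in capitals.
ABCG5-ABCG8: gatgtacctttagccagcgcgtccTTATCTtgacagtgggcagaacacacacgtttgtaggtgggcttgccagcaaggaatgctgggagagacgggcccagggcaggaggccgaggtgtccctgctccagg
This motif, searched on both strands of 300-base promoters, was in 7.58% of 15762 promoters and in 3 of the 34 ABC promoters that matched the RefSeq table, those of ABCG5 and ABCG8, whose windows overlap, and of ABCB1. ABCG4, a sterol exporter of brain, was not detected. Its 0 counts allow a level of up to 0.0737 CPM in the HD library and of 0.0785 CPM in the DMSO library.

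Drug and conjugate exporters were the most abundant group. Their 11 genes held 51.5% of the summed FPKM of the family in the HD library and 42.8% in the DMSO library. Of the 9 above the filter, 7 had ratios above 1 with intervals above 1, 1 was past 2-fold, and the median log2 ratio was 0.47. ABCB1 is marginal among the 7, with a lower interval end of 1.001. The interval lay above 1 for 37.8% of all genes compared. The difference in the summed level came from the ABCC genes and not from ABCB1 or ABCG2, which stood near 1.

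ABCB1, the multidrug exporter P-glycoprotein, was at 45.3 FPKM (10031 counts) in the HD library and 44.2 FPKM (9143 counts) in the DMSO library, a ratio of 1.03 (1.00 to 1.06). ABCG2, which exports urate and many drugs, was at 29.5 FPKM (5298 counts) in the HD library and 31.2 FPKM (5246 counts) in the DMSO library, a ratio of 0.948 (0.912 to 0.985). Both of these drug exporters thus stayed near a ratio of 1. Their depth makes the counting error small, while the error between cultures is not known.

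ABCC3, which exports glucuronides and bile salts across the basolateral membrane (chromosome 17, 50634881 to 50692253), was at 13.2 FPKM (2037 counts) in the HD library and 6.30 FPKM (908 counts) in the DMSO library. The ratio was 2.11 (1.95 to 2.28), and its interval reached below 2. ABCC2, the canalicular exporter of conjugated bilirubin and drug conjugates, was at 61.9 FPKM (10986 counts) in the HD library and 42.9 FPKM (7109 counts) in the DMSO library, a ratio of 1.45 (1.41 to 1.49). ABCC4, a second basolateral exporter that carries cyclic nucleotides and bile salts, went the other way. It was at 5.24 FPKM (1312 counts) in the HD library and 9.11 FPKM (2130 counts) in the DMSO library, a ratio of 0.578 (0.539 to 0.620). ABCC3 was thus at 2.52 times the level of ABCC4 in the HD library and at 0.692 times in the DMSO library, so the order of the 2 basolateral exporters turned. The quotient of these ratios, which does not depend on how the libraries are scaled, was 3.64 (3.28 to 4.04).

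The other 4 ABCC exporters lay close together, between 1.30 and 1.40. ABCC1, which exports glutathione conjugates, was at 7.19 FPKM (1973 counts) in the HD library and 5.22 FPKM (1339 counts) in the DMSO library, a ratio of 1.38 (1.29 to 1.48). ABCC5, an exporter of cyclic nucleotides and other organic anions, was at 12.5 FPKM (2223 counts) in the HD library and 8.92 FPKM (1488 counts) in the DMSO library, a ratio of 1.40 (1.31 to 1.5). ABCC10, linked to resistance to taxanes, was at 5.93 FPKM (1023 counts) in the HD library and 4.24 FPKM (685 counts) in the DMSO library, a ratio of 1.40 (1.27 to 1.55). All 3 stayed under 1.5-fold, and their intervals overlapped one another.

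ABCC6, whose loss causes the mineralisation disorder pseudoxanthoma elasticum, was at 27.2 FPKM (4363 counts) in the HD library and 21.0 FPKM (3150 counts) in the DMSO library, a ratio of 1.30 (1.24 to 1.36). It has 2 annotated pseudogene copies among which reads may be split, so its level is uncertain. ABCC11 had 26 counts in the HD library and 20 in the DMSO library, under the filter, and ABCC12 had 0 counts in both.

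**Figure D3:**
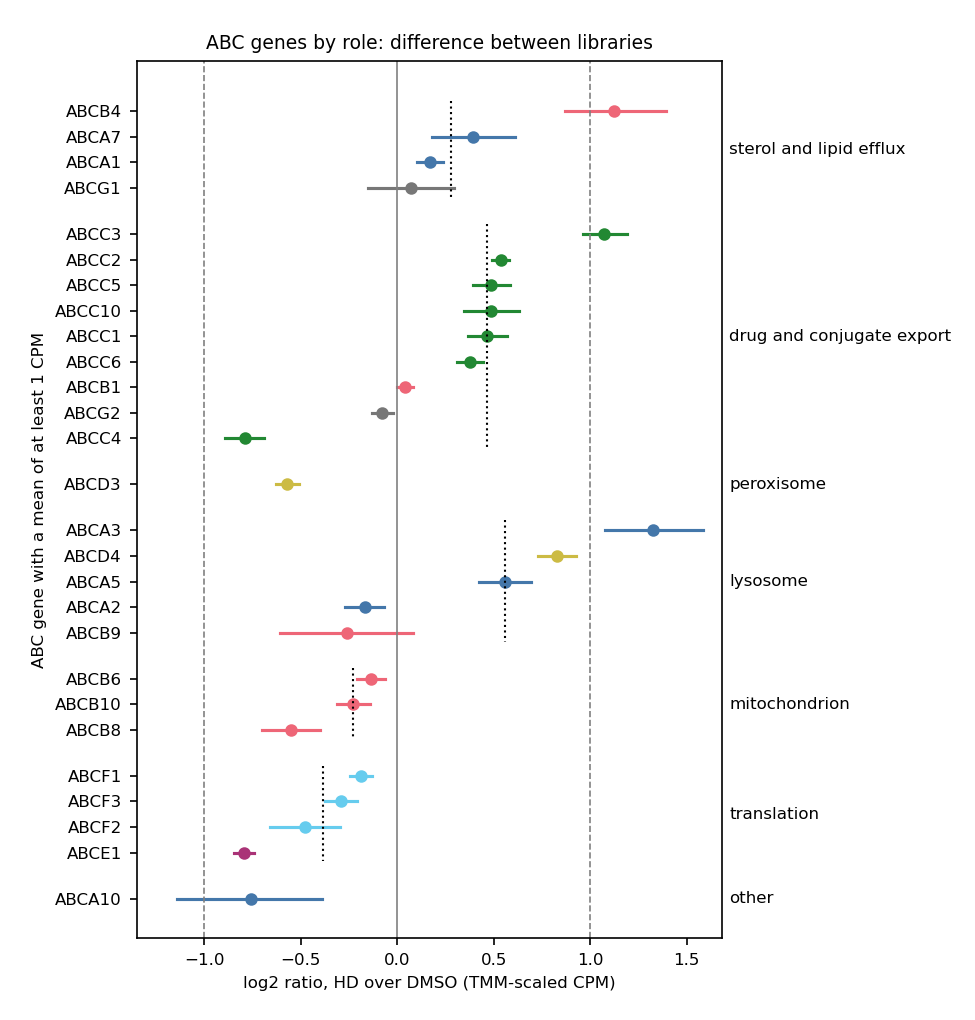
The same 27 log2 ratios of HD over DMSO (x axis) with the genes (y axis) grouped by role, coloured by subfamily, with 95% counting intervals, a dotted line at the median of roles with at least 3 genes and dashed lines at 2-fold. Sterol exporters lie right of 0, ABCC4 stands apart from the other drug exporters at -0.79, and all 3 mitochondrial and all 4 ribosomal members lie left of 0.

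The peroxisomal transporters described here are 2 genes, of which 1 passed the filter. ABCD3, which imports branched-chain acyl-CoA and bile acid precursors, was at 11.8 FPKM (3829 counts) in the HD library and 17.5 FPKM (5331 counts) in the DMSO library, a ratio of 0.674 (0.647 to 0.703). It was below 1 but not past 1.5-fold, and 14.7% of all genes compared had a ratio as low. ABCD2, a peroxisomal transporter of fatty acyl-CoA, had 2 counts in the HD library and 1 in the DMSO library.

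Lysosomal and related members held some of the higher ratios. ABCA3, which loads surfactant phospholipid into lysosome-related lamellar bodies in lung (chromosome 16, 2275881 to 2340728), had 479 counts in the HD library and 179 in the DMSO library. Its level was 1.78 FPKM in the HD library against 0.711 FPKM in the DMSO library, a 2.51-fold difference (2.11 to 3.0), the highest ratio of the 27 genes, although its interval overlapped those of ABCB4 and ABCC3. A ratio as high was seen in 2.87% of all genes compared. ABCD4, which releases cobalamin (vitamin B12) from lysosomes although its subfamily is named for peroxisomes, was at 21.1 FPKM (2438 counts) in the HD library and 11.9 FPKM (1288 counts) in the DMSO library. Its ratio was 1.78 (1.66 to 1.90), on the other side of 1 from ABCD3. With ABCA3, ABCB4 and ABCC3 it made up the 4 genes past 1.5-fold in this direction, and 7.12% of its exonic bases lie in an overlapping annotated gene on the same strand.

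The 250 bases before the start of ABCA3 (RefSeq, GRCh38.p14, chr16:2340729-2340978, minus strand) are shown because ABCA3 was one of the 3 genes past 2-fold. Capitals mark 3 matches to the motif of the factor NRF1 (GCGCA, any base, then GCGC), searched on both strands, which do not overlap.
ABCA3: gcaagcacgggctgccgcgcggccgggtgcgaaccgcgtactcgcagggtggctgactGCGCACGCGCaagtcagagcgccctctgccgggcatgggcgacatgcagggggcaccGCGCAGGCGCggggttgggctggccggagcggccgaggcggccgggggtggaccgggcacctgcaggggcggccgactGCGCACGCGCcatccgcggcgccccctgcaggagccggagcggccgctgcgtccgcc
The motif was in 8.50% of all 15762 promoters and in 11.7% of the 10134 promoters of genes above the filter. Of 23 ABC genes above the filter with a promoter in the table, 4 held it, ABCA3, ABCC5, ABCD3 and ABCF3, and their ratios lay on both sides of 1. The motif TGACNNNGC of the antioxidant response element was in 7 of these 23, against 15.1% of the promoters above the filter. They were ABCA2, ABCA3, ABCA5, ABCB6, ABCC4, ABCD4 and ABCF1, with ratios from 0.578 to 2.51. The motif TCACGTGA, bound by lysosomal gene regulators of the MiT/TFE family, was in none of the 34 ABC promoters and in 1.43% of all. Also searched were the GC box GGGCGG and the ATF4 motif TGATGCAA. The GC box was in 15 of the 23, against 69.8% of the promoters above the filter. The ATF4 motif was in 1 of the 34 ABC promoters, that of ABCA13, and in 0.673% of all. Motifs were picked with the values known, and a match or its lack describes these letters in this window only.

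The other lysosomal members were mixed. ABCA5, a lysosomal lipid transporter, was at 3.22 FPKM (1157 counts) in the HD library and 2.20 FPKM (738 counts) in the DMSO library, a ratio of 1.47 (1.34 to 1.62). ABCA2, found in late endosomes and lysosomes, was at 4.57 FPKM in the HD library and 5.15 FPKM in the DMSO library, a ratio of 0.890 (0.829 to 0.955). ABCB9, a lysosomal peptide transporter, was at 0.855 FPKM in the HD library and 1.03 FPKM in the DMSO library, and its interval included 1 (ratio 0.834, 0.657 to 1.06). Exons of ABCB9 overlap ARL6IP4 and OGFOD2 on the opposite strand, and no source used here says whether strand was used in counting, so its reads are uncertain. The median log2 ratio of the 5 genes was 0.56.

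ABCA5 belongs to a row of 5 related genes on chromosome 17 whose ratios lay on both sides of 1. Next to it, ABCA10 was at 0.388 FPKM (98 counts) in the HD library and 0.661 FPKM (156 counts) in the DMSO library, a ratio of 0.590 (0.453 to 0.764). The level of ABCA5 was 8.29 times that of ABCA10 in the HD library and 3.32 times in the DMSO library. ABCA6 had 5 counts in the HD library and 26 in the DMSO library, a ratio of 0.181 (0.0541 to 0.478). ABCA9 had 14 and ABCA8 had 1 count in the HD library, against 15 and 0 in the DMSO library. ABCA5 is the only gene of the row with a level above 1 FPKM in either library.

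The 3 mitochondrial members described here were below 1 and none reached 1.5-fold. ABCB8, which is tied to mitochondrial iron export, was at 3.44 FPKM (642 counts) in the HD library and 5.06 FPKM (882 counts) in the DMSO library, a ratio of 0.683 (0.616 to 0.757). ABCB10, which acts in heme synthesis, had a ratio of 0.855 (0.805 to 0.908), at 13.9 FPKM in the HD library and 16.4 FPKM in the DMSO library. ABCB6, a porphyrin transporter, had one of 0.911 (0.867 to 0.957), at 26.3 FPKM in the HD library and 28.95 FPKM in the DMSO library. The interval lay below 1 for all 3 and for 40% of all genes compared. ABCB10 has 3 annotated pseudogenes, and 54.7% of the exonic bases of ABCB6 lie in an overlapping annotated gene on the same strand.

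The ribosome-acting members were also all below 1. ABCE1, which splits ribosomes after termination (chromosome 4, 145098311 to 145129524), was at 31.1 FPKM (4925 counts) in the HD library and 54.1 FPKM (8012 counts) in the DMSO library. Its ratio of 0.577 (0.557 to 0.598) was among the lowest of the 27 genes, and 8.39% of all genes compared had a ratio as low. Its order against ABCC4 and ABCA10, whose intervals overlapped its own, is not resolved. ABCF2 was at 2.41 FPKM (445 counts) in the HD library and 3.37 FPKM (581 counts) in the DMSO library, a ratio of 0.719 (0.634 to 0.815). ABCF3 was at 22.5 FPKM (2210 counts) in the HD library and 27.6 FPKM (2539 counts) in the DMSO library, a ratio of 0.817 (0.771 to 0.865). ABCF1, which binds the initiation factor eIF2, was at 37.0 FPKM (5053 counts) in the HD library and 42.3 FPKM (5399 counts) in the DMSO library, a ratio of 0.879 (0.845 to 0.913). These 4 genes held 23.0% of the summed FPKM of the family in the HD library and 31.5% in the DMSO library. ABCF2 has 2 annotated pseudogenes and 45.8% of its exonic bases lie in an overlapping annotated gene on the same strand, so its reads are uncertain. ABCE1 shares 7.49% of its exonic bases with ANAPC10 on the opposite strand.

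The 250 bases before the start of ABCE1 (RefSeq, GRCh38.p14, chr4:145098061-145098310, plus strand) are shown because ABCE1 had the highest level in the DMSO library and one of the lowest ratios. Capitals mark TGACGTCA, the full cAMP response element.
ABCE1: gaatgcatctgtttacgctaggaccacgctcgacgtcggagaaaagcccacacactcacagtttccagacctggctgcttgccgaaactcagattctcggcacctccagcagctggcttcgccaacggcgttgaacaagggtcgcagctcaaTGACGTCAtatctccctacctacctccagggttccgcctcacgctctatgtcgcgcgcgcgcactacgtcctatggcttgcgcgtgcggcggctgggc
ABCE1 was the only one of the 34 matched ABC genes with this motif, which was in 2.61% of all promoters and reads the same on both strands.

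**Figure D4:**
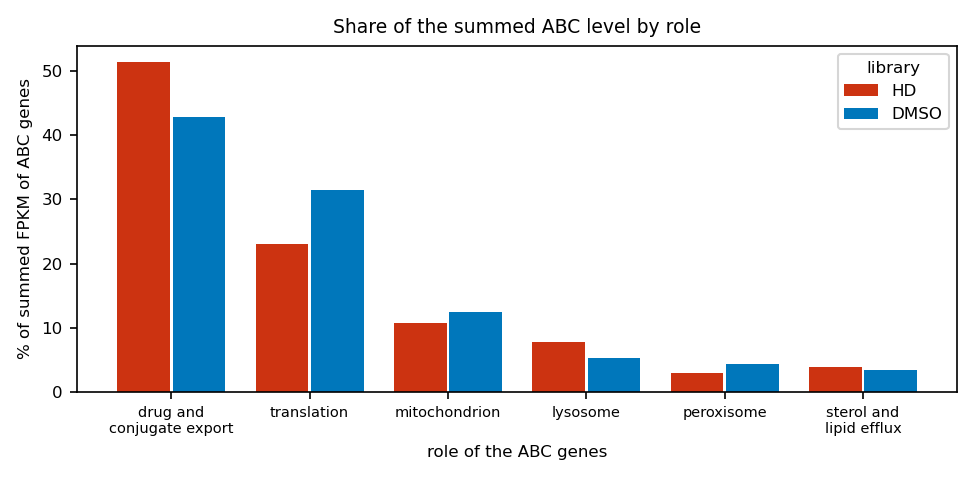
Share of the summed deposited FPKM of the 42 ABC genes (y axis, %) held by 6 roles (x axis), with red bars for the HD library and blue bars for the DMSO library. Drug and conjugate exporters held 51.5% in the HD library against 42.8% in the DMSO library, and ribosomal members 23.0% in the HD library against 31.5% in the DMSO library.

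The remaining members were at or near the limit of detection. ABCC8 had 0 counts in both libraries, and ABCC9 had 2 in the HD library and 5 in the DMSO library. Both encode sulfonylurea receptors, the regulatory subunits of ATP-sensitive potassium channels. ABCA4, a retinal transporter, had 3 counts in the HD library and 10 in the DMSO library. ABCA12, which carries skin lipids, had 5 in the HD library and 14 in the DMSO library, and ABCA13 had 28 in the HD library and 18 in the DMSO library. ABCB5 had 0 counts in the HD library and 4 in the DMSO library. Of the 15 genes under the filter, the interval lay below 1 in 4, ABCA6, ABCA12, ABCG5 and ABCG8, all of which had ratios under 0.5. With no filter these were 4 of the 39 ABC genes with a count. By the same rule 962 of all 15977 genes with a count were at least 2-fold lower.

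Genes that work beside the transporters were examined in 7 lists of at least 9 genes above the filter. Of all genes compared, 5.88% were at least 2-fold higher, 5.17% at least 2-fold lower and 51.1% below 1, against which the counts of each list can be read. Among liver X receptor and lipoprotein efflux genes, 2 of 16 passed 2-fold, both upward in the HD library, and the median log2 ratio was 0.25. APOE, an apolipoprotein that accepts cholesterol, was at 1099 FPKM in the HD library and 483 FPKM in the DMSO library, a ratio of 2.28 (2.25 to 2.32). NPC1, which exports cholesterol from lysosomes, had a ratio of 2.04 (1.93 to 2.16), its partner NPC2 one of 1.89 and the receptor NR1H2 one of 1.38. APOA1, the acceptor for ABCA1, had a ratio of 0.933 and NR1H3, the other liver X receptor, one of 0.971. The exporters ABCA1 and ABCG1 were thus closer to 1 than APOE and NPC1 were.

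Solute carriers of drugs and bile acids, which include uptake carriers and some exporters, had a median of 0.33, and 2 of 9 passed 2-fold, both higher in the HD library. These were SLCO1B3 and SLCO1B1, organic anion carriers at the blood side, with ratios of 2.66 (1.79 to 4.02) and 2.29 (1.67 to 3.17) at levels up to 1.22 FPKM. The related SLCO2B1 was more abundant and went the other way. It was at 13.2 FPKM in the HD library and 17.2 FPKM in the DMSO library, a ratio of 0.771 (0.729 to 0.814). SLC51B, a subunit of the basolateral bile acid exporter, had a ratio of 0.522 (0.469 to 0.579) and SLC22A9 one of 1.31. The other subunit of that exporter, SLC51A, had 91 counts in the HD library and 77 in the DMSO library. Its ratio of 1.11 had an interval that included 1 (0.810 to 1.52). Of 11 xenobiotic receptors and regulators of drug exporters, none was past 2-fold, and the median was -0.06. The bile acid receptor NR1H4 had a ratio of 0.705, NR1I3 one of 0.766 and the scaffold PDZK1 one of 0.769, while ARNT had one of 1.32.

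Peroxisomal genes had a median of -0.19, with 20 of 29 below 1 and 1 past 2-fold. ACSL1, which activates fatty acids, was at 27.6 FPKM in the HD library and 11.0 FPKM in the DMSO library, a ratio of 2.52 (2.38 to 2.67). CROT, EHHADH and PEX3 had ratios of 0.531, 0.576 and 0.600, on the same side of 1 as ABCD3.

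Of 16 heme and iron-sulfur cluster genes, none was past 2-fold and 13 were below 1, with a median of -0.24, on the same side as the 3 mitochondrial transporters. NFS1, which supplies the sulfur for clusters, had a ratio of 0.544 (0.505 to 0.586), CPOX one of 0.713, the chaperone HSPA9 one of 0.753 and the scaffold ISCU one of 0.768. ALAS1, the rate-limiting enzyme of heme synthesis in liver, had one of 1.06 (1.01 to 1.10). Cobalamin genes had a median of -0.27, with 7 of 10 below 1 and 1 past 2-fold. TCN2, the blood carrier of cobalamin, was at 5.68 FPKM in the HD library and 2.72 FPKM in the DMSO library, a ratio of 2.10 (1.79 to 2.47). LMBRD1, the lysosomal partner of ABCD4, had a ratio of 1.2 (1.15 to 1.25), and MTRR, MMACHC and CD320 had ratios of 0.616, 0.636 and 0.653.

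Of 15 genes of translation termination, ribosome recycling and related steps, 12 were below 1, as were ABCE1 and the ABCF genes. The list median was -0.21. The list also holds subunits of the initiation factor eIF2, among them EIF2S1. The termination factors ETF1 and GSPT1 had ratios of 0.885 and 0.880. GTPBP2, a partner of the ribosome rescue factor PELO, was at 36.1 FPKM in the HD library and 11.6 FPKM in the DMSO library, a ratio of 3.14 (2.95 to 3.34), the 1 gene past 2-fold. EIF2S1, MCTS1 and ZNF598 had ratios of 0.660, 0.673 and 0.735, and none of the 15 was 2-fold lower. The potassium channel pores KCNJ8 and KCNJ11, which pair with ABCC8 and ABCC9, were under the filter, at 10 and 19 counts in the HD library and 2 and 24 in the DMSO library. Of the 3 ABC proteins whose symbols do not start with ABC, the peptide transporter subunits TAP1 and TAP2 had ratios of 1.71 (1.5 to 1.94) and 0.899 (0.828 to 0.977). CFTR, a chloride channel, had 10 counts in the HD library and 49 in the DMSO library. Across the 7 lists the number past 2-fold was 0 to 2 per list.

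**Figure D5:**
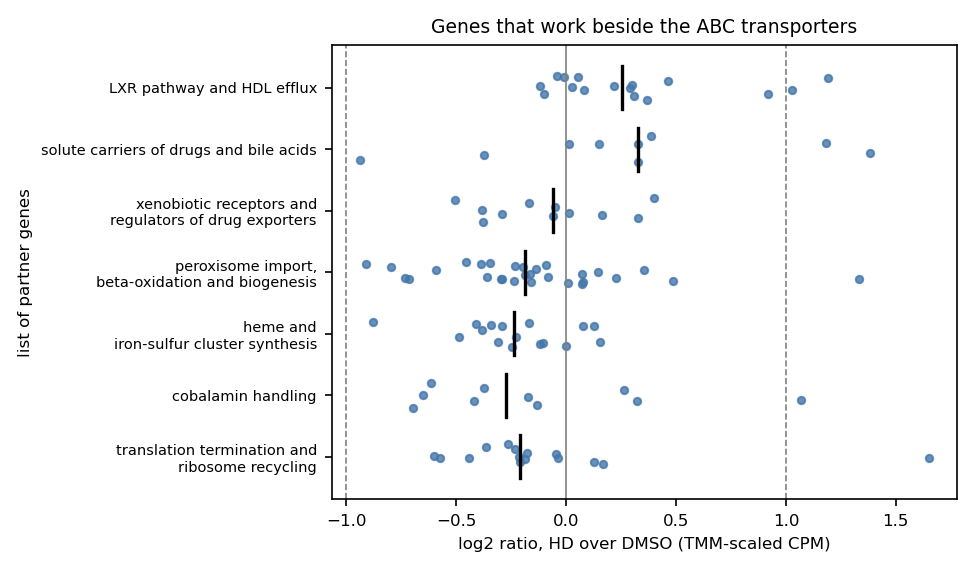
Log2 ratio of HD over DMSO (x axis) for genes above 1 CPM in 7 lists of genes that work beside the transporters (y axis), with a point per gene, a black bar at the list median and dashed lines at 2-fold. Medians run from -0.27 for cobalamin genes to 0.33 for solute carriers of drugs and bile acids, and APOE, NPC1, SLCO1B1, SLCO1B3, ACSL1, TCN2 and GTPBP2 lie right of the 2-fold line.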

How the data were processed

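Poly(A)-selected mRNA of 2 Huh7 libraries, 1 per group, was sequenced. The authors deposited raw counts per gene for both libraries in a single table and a table of FPKM values (counts per length and library total) for each of them. The build was hg38, per the submitters' processing notes. The sources used here do not name the aligner, counting program, strand setting or annotation. Where both libraries had counts, ratios of deposited FPKM and of counts scaled to totals differed by at most 3.13e-05%, so both hold the same measurement.

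TMM scaling was done in edgeR 4.0.16 (R 4.3.3). Ratios are of scaled CPM, and log2 ratios add a prior count of 1. Intervals are exact 95% Clopper-Pearson intervals conditional on the summed count, and those of levels are exact Poisson intervals. For the quotient of 2 genes' ratios a normal approximation on the log scale was used. PCR copies are not independent molecules, so intervals and floors (3 counts) cover counting error only. At 1 CPM an interval spans about 1.62-fold to either side and at 5 CPM about 1.23-fold. Calls needed a 2-fold ratio and an interval excluding 1, and were made over genes of mean CPM 1 or more. With 1 library per group no test and no edgeR fit was possible. The rule was tested on simulated data that held counting error only, so that test does not cover variation between cultures.

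Members, roles and lists were chosen with earlier results of these data known. All 42 members are named, and 3 further rows of the same symbol pattern, with some partner genes, are not reported here and enter no count of members or lists. Members past 2-fold, the sterol, drug and peroxisomal members and the 2 largest differences of each subfamily get full values. Partner genes were named when past 2-fold or among the 4 largest differences of their list, and others were chosen after their values were seen, as were the gene pairs and motifs. Coordinates and promoters (34 of 42 members) are RefSeq's on GRCh38.p14, and overlaps and pseudogenes are from GENCODE v29. Figures were drawn with matplotlib 3.10.9, and ratios computed in Python 3.11.15 with scipy 1.17.1. Alternatives were scaling by totals or DESeq2 1.42.0 size factors, no filter or 5 CPM, a prior count of 5, 1.5-fold and log2(FPKM + 0.1).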

Additional observations from a re-analysis of the deposited data

How the results depend on the processing

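Scaling by total counts or DESeq2 size factors, a prior count of 5 and the deposited FPKM were each tried. Every median of the family, its subfamilies and roles stayed between the medians of its genes' lower and upper interval ends. That range is the counting error of a typical gene and not an interval of the median. The 2 other scalings left the calls at 3 higher and 0 lower ABC genes. Another scaling shifts all genes alike and a filter cannot change a gene's own ratio, so neither tests a single gene. The filter and the size rule mattered more. With no filter, 4 of the 39 ABC genes with a count were lower (ABCA6, ABCA12, ABCG5 and ABCG8). The ABCA median was then 0.00096, the sterol exporter median 0.12 and the family median -0.14, since genes of few counts entered. With a filter of 5 CPM, which leaves 25 ABC genes, the lysosomal median was 0.69. At 1.5-fold, 3 ABC genes were lower (ABCA10, ABCC4 and ABCE1). Over all genes, 1212 of 15977 were higher and 962 lower with no filter, against 726 and 639 of 12353 with it. Depth limits the genes under 1 CPM, and the absence of a second culture limits all of them. No paired analysis was possible because each group has 1 library.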
